A study of Mus musculus with 4 samples.

Results

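Ecel1, Ppp1r1c, Parvb and Ubash3b are 4 of the 25239 gene IDs listed for the mouse retina at E13.5, where E is the embryonic day. They were picked by name for their lower levels in the libraries labelled Isl1cKO, so their difference between genotypes is a description and carries no test. The paralogs Ece1, Ppp1r1a, Ppp1r1b, Parva and Ubash3a, 5 genes chosen by kinship, served as comparators. RNA sequencing covered 2 control libraries and 2 libraries labelled Isl1cKO, all from dissected retina. Isl1 is a LIM-homeodomain transcription factor of early retinal neurons, and cKO stands for conditional knockout. The series states that Isl1 is lost in the Isl1cKO retina. The Cre driver, the alleles of either group and the number of embryos or litters behind a library are not given in the sources used here. The replicates may therefore be technical, and p-values measure only the spread between these libraries.

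The 4 genes belong to unrelated protein families. Ecel1 (also called DINE) is a neuronal membrane peptidase of the M13 zinc metallopeptidase family, known for its induction in injured neurons. Its paralog Ece1 cleaves big endothelins to active endothelins. Ppp1r1c belongs to a small family of inhibitors of protein phosphatase 1 (PP1), with inhibitor-1 (Ppp1r1a) and DARPP-32 (Ppp1r1b), both of which block PP1 once protein kinase A has phosphorylated them. Parvb encodes beta-parvin, an actin-binding adaptor that joins integrin-linked kinase (Ilk) and the PINCH proteins at sites of cell adhesion. Ubash3b (STS-1 or TULA-2) carries a ubiquitin-binding domain, an SH3 domain and a phosphatase domain, and dephosphorylates tyrosine kinases such as Syk. Its paralog Ubash3a is best known from T cells.

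Values are TPM, relative transcript abundances that are scaled for transcript length and so allow levels of different genes to be compared. Fold changes are differences of log2(TPM + 1), Isl1cKO minus control, which understate the change of genes at low levels. Aligned sequence ranged from 12.6 to 14.3 gigabases per library. The progenitor markers Pax6, Rax, Six3, Six6, Lhx2, Sox2, Hes1 and Fgf15 summed to between 3586 and 4090 TPM in the 4 libraries, and none of them was at 0. The targeted gene Isl1 held 242 and 201 TPM in control replicates 1 and 2 but 321 and 223 TPM in Isl1cKO replicates 1 and 2, so it was not lower there (log2 fold change 0.28, SE 0.21, adjusted p-value 0.683 in limma). The tables give no value per exon, and each direction below rests on the labels. Across 13984 tested genes, 69 (0.493%) passed an adjusted p-value of 0.05 in limma and are called here. Of these, 65 were lower (0.465% of tested genes) and 4 higher (0.0286%), and the median log2 fold change of all tested genes was -0.05. All 4 genes described here were among the 65, which is how they came to be chosen.

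The genes lie on 4 chromosomes, each on 1 row per library. In mm10 coordinates, Ecel1 spans chromosome 1, 87147655 to 87156356 on the minus strand, and its longest coding transcript in GENCODE M21 has 18 exons. Ppp1r1c spans chromosome 2, 79707780 to 79818546 on the plus strand, with 5 exons spread over 111 kb. Parvb spans chromosome 15, 84232043 to 84315609 on the plus strand, with 13 exons. Ubash3b spans chromosome 9, 41013626 to 41158062 on the minus strand, with 14 exons. No other gene of the deposited tables overlaps these 4. In GENCODE M21 an unprocessed locus on the same strand, Gm48611, lies within Ubash3b.

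Because the 4 genes were lower together, their promoter windows are shown, each of 300 bases from 250 before to 50 after the RefSeq start (GRCm38.p6, 5′ to 3′ on the gene's strand). Capitals mark TAAT read on either strand, the core letters bound by many homeodomain proteins, a class that includes Isl1. The windows are chr1:87156307-87156606 on the minus strand for Ecel1, chr2:79707530-79707829 on the plus strand for Ppp1r1c, chr15:84231793-84232092 on the plus strand for Parvb and chr9:41158013-41158312 on the minus strand for Ubash3b.
Ecel1: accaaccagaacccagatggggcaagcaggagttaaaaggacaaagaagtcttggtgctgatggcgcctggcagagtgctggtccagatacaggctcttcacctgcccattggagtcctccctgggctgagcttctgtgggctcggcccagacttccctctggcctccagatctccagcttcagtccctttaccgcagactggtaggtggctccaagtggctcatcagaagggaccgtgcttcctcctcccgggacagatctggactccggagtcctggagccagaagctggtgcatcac
Ppp1r1c: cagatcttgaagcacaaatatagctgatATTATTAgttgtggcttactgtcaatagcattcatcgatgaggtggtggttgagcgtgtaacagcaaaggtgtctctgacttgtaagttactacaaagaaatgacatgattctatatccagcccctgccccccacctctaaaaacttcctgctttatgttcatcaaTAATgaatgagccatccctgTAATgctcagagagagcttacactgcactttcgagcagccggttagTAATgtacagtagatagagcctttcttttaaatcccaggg
Parvb: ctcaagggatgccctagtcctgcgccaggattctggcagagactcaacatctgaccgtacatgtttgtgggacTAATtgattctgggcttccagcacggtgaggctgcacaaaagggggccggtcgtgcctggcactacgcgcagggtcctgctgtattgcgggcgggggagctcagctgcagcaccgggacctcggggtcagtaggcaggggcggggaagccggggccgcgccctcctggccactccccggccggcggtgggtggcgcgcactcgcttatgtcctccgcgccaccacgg
Ubash3b: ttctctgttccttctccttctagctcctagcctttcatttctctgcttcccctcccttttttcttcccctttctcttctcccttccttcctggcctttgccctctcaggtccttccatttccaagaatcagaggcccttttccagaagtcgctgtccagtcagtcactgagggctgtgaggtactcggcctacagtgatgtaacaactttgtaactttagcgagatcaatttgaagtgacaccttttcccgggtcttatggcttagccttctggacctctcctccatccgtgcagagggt

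The windows had little in common. TAAT occurred 5 times in that of Ppp1r1c, with overlapping matches counted, and 1 time in that of Parvb. It occurred 0 times in those of Ecel1 and Ubash3b, against at least 1 match in 58.0% of 32851 windows of the same length. The longer strings CTAATTG and CTAATGG, which resemble binding sequences of Isl1 and contain TAAT, were searched on both strands. CTAATTG occurred 1 time, in the Parvb window, with its first base 178 bases before the start, and either string occurred in 3.94% of all windows. TATAAA occurred in none of the 4, against 13.6% of all windows. Base composition differed as well: the Parvb window held 24 CG dinucleotides, against 4 for Ppp1r1c, 5 for Ubash3b and 6 for Ecel1, and a median of 7 over all windows. The GC content was 67.0% for Parvb, 59.0% for Ecel1 and 42.0% for Ppp1r1c, with Ubash3b between the last 2. A match is only a description of these letters. RefSeq windows were at hand for 6 of the 9 genes; Ppp1r1a, Ppp1r1b and Parva had none, and a second Ubash3b start, which held no TAAT, is not printed.

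Ecel1, the neuronal peptidase, had levels of 7.21 TPM (replicate 1) and 8.10 TPM (replicate 2) in control. Its levels in the Isl1cKO libraries were 0.391 TPM (replicate 1) and 0.385 TPM (replicate 2). The groups did not overlap, and the Isl1cKO libraries differed less from each other than the controls did. The means were 7.66 ± 0.628 and 0.388 ± 0.00474 TPM (SD, n = 2 each), a ratio of control to Isl1cKO of 19.7 and a log2 fold change of -2.64. Behind these values stood a mean coverage of 36.4 and 38.6 reads per base in control and 2.01 and 1.84 in Isl1cKO. Among all tested genes, both Isl1cKO libraries lay below both controls in 30.0%. This order also held for the paralogs Ece1, Ppp1r1a and Ppp1r1b, while for Parva both Isl1cKO libraries lay above both controls. The choice of the 4 genes for lower levels favours it. In bulk tissue, fewer cells of a type and less RNA per cell cannot be told apart.

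Its paralog Ece1 was more abundant and stood at 20.5 and 17.2 TPM in control and at 15.7 and 15.9 TPM in Isl1cKO. Its log2 fold change of -0.24 had a 95% interval from -0.54 to 0.06 and an adjusted p-value of 0.490 in limma. Ecel1 amounted to 35.1% and 47.0% of the Ece1 level in the controls and to 2.5% and 2.4% in the Isl1cKO libraries. Of the 7 M13 peptidases, 5 were tested, and none of the 4 other than Ecel1 was called. At an unadjusted p-value under 0.05 there was 1, Mme, where the share over all tested genes was 12.1%. Only 0.493% of tested genes were called, so 0 calls in this list or those below say little about their members. Ece2, a further endothelin-converting enzyme, averaged 8.41 ± 0.525 TPM (control) and 6.58 ± 1.90 TPM (Isl1cKO). Mme (neprilysin) stood at 1.52 ± 0.208 and 0.793 ± 0.155 TPM (adjusted p-value 0.242 in limma), and Phex averaged 1.19 TPM in either group. Mmel1 and Kel did not pass the filter on low values. Of the endothelin ligands and receptors, 3 of 5 were tested and 0 were called in limma, against 1 (Edn1) at an unadjusted p-value under 0.05. Their log2 fold changes ran from -0.11 for Ednrb to 0.58 for Edn1, and Edn2 was listed at 0 in each library.

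Ppp1r1c, the PP1 inhibitor, was the least abundant of the 4. Control replicates 1 and 2 held 3.45 and 3.29 TPM, and Isl1cKO replicates 1 and 2 held 0.0145 and 0.0380 TPM. Group means were 3.37 ± 0.113 and 0.0262 ± 0.0166 TPM (SD, n = 2 each), and the log2 fold change was -2.09. The groups did not overlap, where both Isl1cKO libraries lay below both controls in 30.0% of all tested genes. The gene was barely covered in both Isl1cKO libraries. Mean coverage was 8.96 and 8.21 reads per base in control but 0.0471 and 0.0926 in Isl1cKO, too little for a ratio. For the same reason its fold change depends most on the pseudocount of 1, and at a pseudocount of 0.1 it was -4.78.

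Ppp1r1a, inhibitor-1, was the abundant member of the family, at 59.7 and 64.4 TPM in control and 55.5 and 58.1 TPM in Isl1cKO. Its log2 fold change of -0.12 had a 95% interval from -0.36 to 0.11 and an adjusted p-value of 0.655 in limma. Ppp1r1b (DARPP-32), a mediator of dopamine signalling in the striatum, was near 0 throughout. It stood at 0.152 TPM in both controls, at 0.0464 TPM in Isl1cKO replicate 1 and was listed at 0 in Isl1cKO replicate 2, so it was not tested. Ppp1r1c amounted to 5.77% and 5.10% of the Ppp1r1a level in control, and to 0.0261% and 0.0653% in Isl1cKO. Of 8 PP1 inhibitor genes, 7 were tested, and none of the 6 other than Ppp1r1c was called, against 1 (Ppp1r14a) at an unadjusted p-value under 0.05. Those 6 had a median log2 fold change of -0.16 and ranged from -0.22 for Ppp1r14b to 0.28 for Ppp1r14a. The catalytic subunits Ppp1ca, Ppp1cb and Ppp1cc, on which the inhibitors act, summed to between 1050 and 1127 TPM, and 0 of 3 were called in limma or had an unadjusted p-value under 0.05. Of 6 genes for kinases of this pathway or their regulators 0 were called in limma, against 1 (Cdk5r1) at an unadjusted p-value under 0.05. Their log2 fold changes ran from -0.68 for Cdk5r1, an activator of Cdk5, to -0.07 for Cdk5.

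Parvb, the adhesion adaptor, was the most abundant of the 4. Control replicates 1 and 2 held 29.3 and 25.1 TPM, and Isl1cKO replicates 1 and 2 held 5.13 and 5.03 TPM. The gap between the controls was larger than that between the Isl1cKO libraries. The groups did not overlap, an order shared by 30.0% of all tested genes. The means were 27.2 ± 2.94 and 5.08 ± 0.0674 TPM (SD, n = 2 each), a ratio of 5.36 and a log2 fold change of -2.21. Coverage was 154 and 124 reads per base in control and 27.4 and 25.0 in Isl1cKO.

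Parva, alpha-parvin, stood at 70.0 and 68.7 TPM in control and 70.6 and 71.4 TPM in Isl1cKO. Its log2 fold change of 0.03 had a 95% interval from -0.17 to 0.24 and an adjusted p-value of 0.900 in limma. An antisense gene, Parvaos, lies within Parva and stood at or below 0.323 TPM in each library. Parvb amounted to 41.8% and 36.6% of the Parva level in control and to 7.27% and 7.05% in Isl1cKO. Parvg, gamma-parvin, best known from blood cells, begins 9.11 kb beyond the end of Parvb and stood at 2.00 ± 0.00914 and 1.47 ± 0.340 TPM (adjusted p-value 0.454 in limma). The partners of the parvins were tested next: of 11 genes that act with Ilk at integrin adhesions, 10 were tested and 0 were called in limma, against 1 (Itgb1) at an unadjusted p-value under 0.05. Their median log2 fold change was -0.06, and they ranged from -0.25 for Itgb1, the beta-1 integrin, to 0.16 for Arhgef6, an exchange factor for Rac and Cdc42 that beta-parvin binds. Ilk averaged 136 ± 5.41 TPM (control) and 134 ± 6.94 TPM (Isl1cKO), and Lims1, which encodes PINCH1, averaged 65.4 and 58.9 TPM.

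Ubash3b, the tyrosine phosphatase, was found at 24.4 TPM (replicate 1) and 23.8 TPM (replicate 2) in control. In Isl1cKO it was found at 4.78 TPM (replicate 1) and 3.76 TPM (replicate 2). Here the Isl1cKO libraries were further apart than the controls. The groups did not overlap, with the same order in 30.0% of all tested genes. The means were 24.1 ± 0.430 and 4.27 ± 0.727 TPM (SD, n = 2 each), a ratio of 5.64 and a log2 fold change of -2.26. Coverage was 120 and 110 reads per base in control and 23.9 and 17.4 in Isl1cKO. Ubash3a was listed at 0 in each of the 4 libraries and could not be tested.

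The Cbl ubiquitin ligases bind Ubash3 proteins, and 12 genes for these ligases, tyrosine kinases and adaptors are described here, which is not the whole of the list. Of these 10 were tested and 0 were called in limma, against 1 (Fyn, a kinase of the Src family) at an unadjusted p-value under 0.05. Their median log2 fold change was -0.18. Fyn stood at 89.0 and 83.9 TPM in control and at 68.7 TPM in either Isl1cKO library (adjusted p-value 0.274 in limma). Syk, a direct substrate, averaged 1.19 ± 0.201 TPM (control) and 1.06 ± 0.0522 TPM (Isl1cKO) (adjusted p-value 0.786 in limma). Cblb averaged 20.0 TPM in control and 19.9 TPM in Isl1cKO. Cbl was at 24.4, 20.0, 18.2 and 5.48 TPM from control replicate 1 to Isl1cKO replicate 2, with the low value in Isl1cKO replicate 2 alone (adjusted p-value 0.534 in limma).

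**Figure D1:**
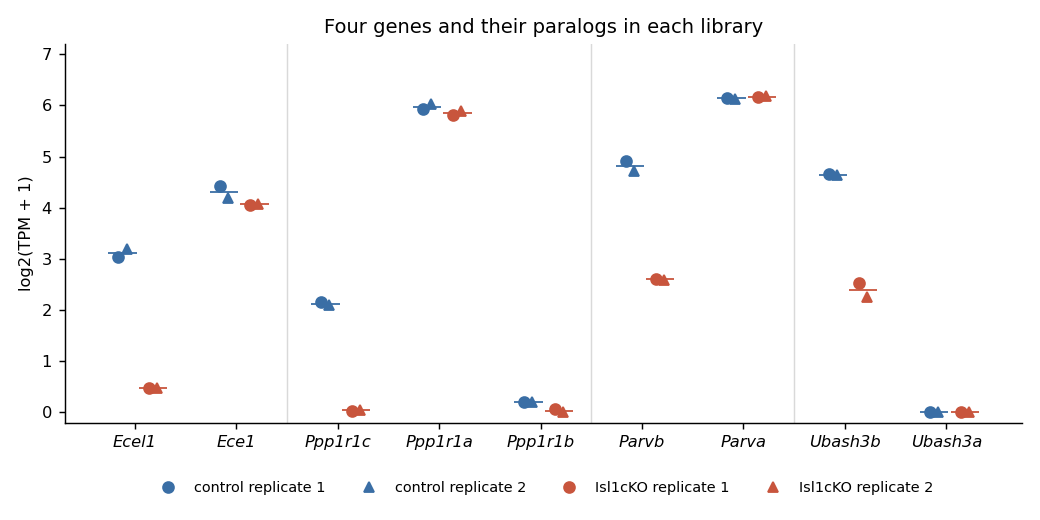
Levels of the 4 genes and their 5 paralogs as log2(TPM + 1) on the vertical axis, 1 symbol per library and a bar at each group mean (n = 2 each). Ecel1, Ppp1r1c, Parvb and Ubash3b are lower in both libraries labelled Isl1cKO, while Ece1, Ppp1r1a and Parva stay near their control levels and Ppp1r1b and Ubash3a lie at or near 0.

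The order of the levels differed between the groups. In control it ran from Parva (69.4 TPM) through Ppp1r1a (62.1), Parvb (27.2), Ubash3b (24.1), Ece1 (18.9), Ecel1 (7.66) and Ppp1r1c (3.37) to Ppp1r1b (0.152) and Ubash3a (listed at 0). Parvb and Ubash3b were neighbours in this order, and their libraries came within 0.767 TPM of each other. In Isl1cKO the order was Parva (71.0 TPM), Ppp1r1a (56.8), Ece1 (15.8), Parvb (5.08), Ubash3b (4.27), Ecel1 (0.388), Ppp1r1c (0.0262), Ppp1r1b (0.0232) and Ubash3a. Parvb and Ubash3b again lay next to each other, 0.25 TPM apart at their closest, and the libraries of Ppp1r1c and Ppp1r1b overlapped. Among tested genes ordered by mean TPM, Parvb went from percentile 51.5 to 20.1 and Ubash3b from percentile 47.9 to 18.0. No such percentile is given for Ecel1 and Ppp1r1c, which passed the filter on low values only through the controls.

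Taking the families and partners together, and leaving the 4 genes aside, 44 of the 53 genes described here were tested. Of these, 0 were called in limma, where the share over all tested genes was 0.493%, so 0 calls among 44 genes say little. An unadjusted p-value under 0.05 was reached by 6 of the 44, a share near the 12.1% of all tested genes. The 44 genes had a median log2 fold change of -0.10, against -0.05 over all genes tested. They ranged from -1.05 for Cbl to 0.58 for Edn1. Both Isl1cKO libraries lay below both controls in 20 of the 44, where the share over all tested genes was 30.0%, and above both in 5, where that share was 14.9%. The plot of families and partners shows the 4 genes to the left of their relatives, a place that follows from their choice for lower levels.

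**Figure D2:**
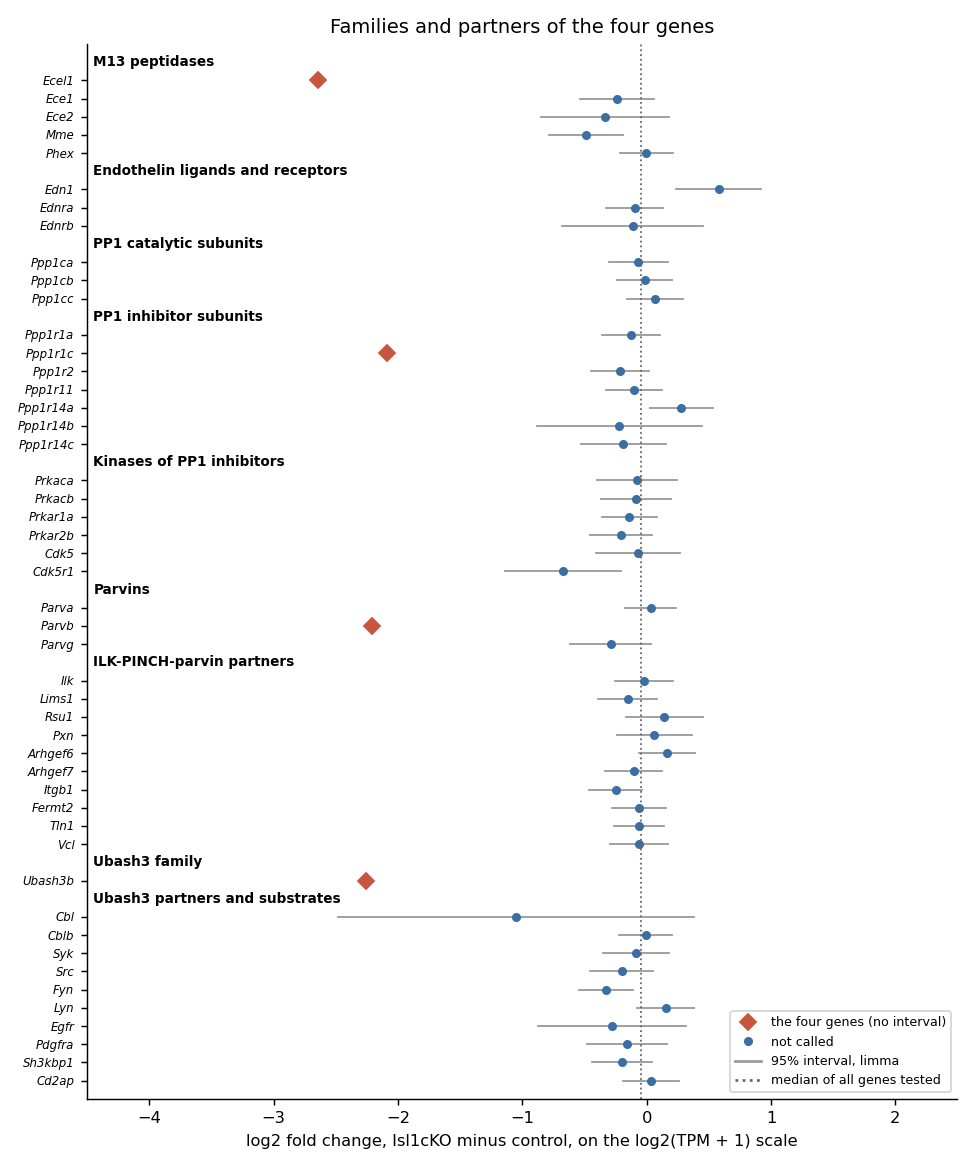
Log2 fold change (horizontal axis, Isl1cKO minus control on the log2(TPM + 1) scale) of each tested family or partner gene described here, with 95% limma intervals as lines for all but the 4 genes. The 4 genes (diamonds), chosen for lower levels, lie between -2.64 and -2.09 and the other genes shown between -1.05 (Cbl) and 0.58 (Edn1).

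The members were also set beside markers of retinal ganglion cells, the first neurons of the retina, in which Isl1 acts with Pou4f2. Of 12 ganglion cell markers, 0 were called in limma (0.493% of all tested genes) and 11 had an unadjusted p-value under 0.05 (12.1% of all tested genes). Both Isl1cKO libraries lay below both controls in 11 (30.0% of all tested genes). Pou4f2 was the exception, at 125 ± 1.33 and 127 ± 11.1 TPM. The markers summed to 3808 and 3258 TPM in control and 1932 and 1327 TPM in Isl1cKO replicates 1 and 2, and none of them was at 0. In Isl1cKO replicate 1 the markers stood at 39.3% to 108% of their control means, with a median of 50.8%. In Isl1cKO replicate 2 they stood at 20.6% to 95.7%, with a median of 37.2%, and 11 of 12 were lower there than in replicate 1.

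The 4 genes lay below this range in both libraries. Ecel1 stood at 5.11% and 5.02% of its control mean in Isl1cKO replicates 1 and 2. Parvb stood at 18.8% and 18.5%, and Ubash3b at 19.9% and 15.6%. Ppp1r1c stood at 0.430% and 1.13%. Ecel1 and Parvb therefore differed little between the Isl1cKO libraries, while Ubash3b and most ganglion cell markers differed more. Coverage of Ppp1r1c there, at 0.0471 and 0.0926 reads per base, was too low for such a comparison. The 4 genes were picked for low values in these libraries and were among the called genes. Such calls favour small gaps between replicates. Neither their place below the markers nor their gap between replicates was tested against the markers.

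**Figure D3:**
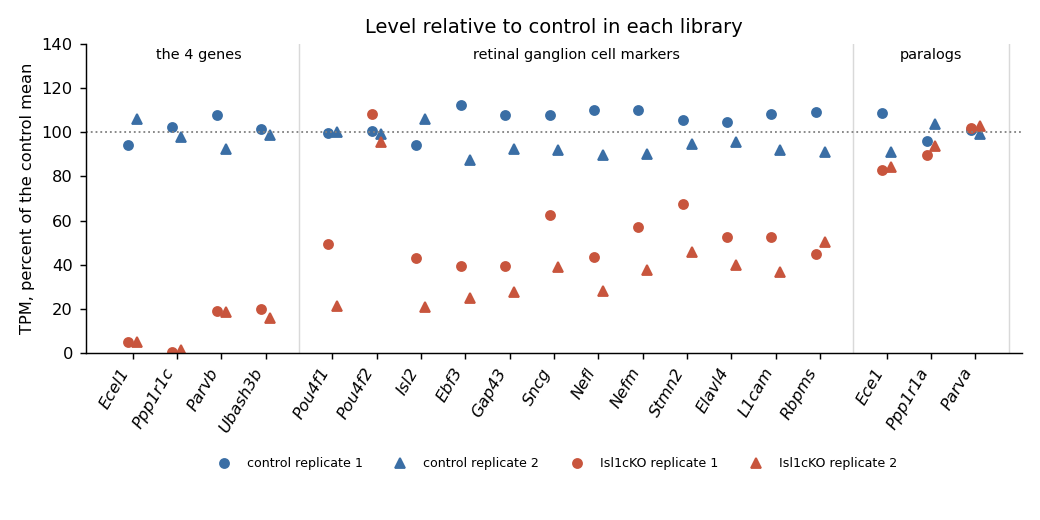
TPM of each library as a percent of the gene's control mean (vertical axis) for the 4 genes, 12 ganglion cell markers and 3 paralogs. The 4 genes lie between 0.430% and 19.9% in the libraries labelled Isl1cKO, while the markers other than Pou4f2 lie between 20.6% and 67.5% and mostly lower in replicate 2.

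Markers of other tissues that dissection can carry over, and of other retinal cell types, were summed in the same way. The 8 lens markers, all tested, summed to 185 and 228 TPM in control and 7.30 and 6.02 TPM in Isl1cKO. In limma 5 were called lower and 7 had an unadjusted p-value under 0.05. Cryba1, Cryga, Crygb and Lim2 were below 1 TPM in both Isl1cKO libraries and passed the filter only through the controls. This favours lower levels in both counts, and Cryba1, Cryga and Crygb were among the calls. Bfsp1 changed least, from 2.31 TPM in control to 2.07 TPM in Isl1cKO. Over all tested genes 0.465% were called lower and 12.1% had an unadjusted p-value under 0.05, shares that also apply to the counts below. The 6 red blood cell markers summed to 2375 and 3286 TPM in control and to 1229 and 201 TPM in Isl1cKO, with 0 of 5 tested called in limma and 3 at an unadjusted p-value under 0.05. White blood cells are known to express Ubash3b. Markers of microglia and other white blood cells summed to 42.2 and 42.8 TPM in control and 52.5 and 63.4 TPM in Isl1cKO. In limma 0 of 6 tested were called, and 2 (Cx3cr1 and C1qb) had an unadjusted p-value under 0.05. Ptprc was below 1 TPM in each library and was not tested. The 5 platelet markers, of which 1 was tested and not called, summed to 6.83 and 4.80 TPM in control and 3.82 and 3.30 TPM in Isl1cKO. They did not move alike. Pf4 averaged 1.24 TPM in control and 0.0403 TPM in Isl1cKO, and Ppbp 0.619 and 0.0458 TPM. Gp1ba, the tested marker, averaged 3.08 and 2.75 TPM, Itga2b 0.634 and 0.621 TPM, and Gp9 0.232 and 0.105 TPM. The 6 muscle markers, of which 1 was tested and not called, summed to between 1.29 and 3.66 TPM, and Myod1 was at 0 in 3 libraries. Of 29 markers in 6 further lists (amacrine, horizontal and photoreceptor cells, endothelium, mesenchyme and pigment epithelium), 18 were tested, 0 were called in limma and 3 had an unadjusted p-value under 0.05. Sums from control replicate 1 to Isl1cKO replicate 2 were 32.5, 20.3, 19.5 and 14.0 TPM for amacrine markers. They were 50.4, 45.4, 58.8 and 39.6 TPM for horizontal cell and 256, 220, 219 and 166 TPM for photoreceptor markers. Among the photoreceptor markers, Isl1cKO means ran from 24.4% of control for Rxrg to 92.4% for Otx2, the most abundant. Endothelial markers summed to 76.4, 58.5, 57.9 and 55.9 TPM, mostly from Kdr, the only 1 tested. In that order Cdh5 stood at 2.55, 0.357, 0.211 and 0 TPM. The part of any of these tissues or cell types in the 4 genes' values was not tested.

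Genes with the most similar pattern were sought by the root mean square (RMS) difference of log2(TPM + 1) over the 4 libraries, after subtracting each gene's own mean. With 4 libraries this mostly finds genes of equal fold change, and it is given as a description. Of the genes named below, Ecel1, Ppp1r1c, Scn9a, Plekhd1, Rgs4 and Cryba4 were below 1 TPM in both Isl1cKO libraries. They passed the filter only through the controls, and the pseudocount of 1 limits their fold change. Ppp1r1c and Parvb therefore match here although their Isl1cKO means were 0.779% and 18.7% of control. For Parvb the nearest tested gene, predicted genes aside, was Ppp1r1c (0.0853), followed by Scn9a (0.0854) and Ubash3b (0.114). Scn9a encodes the sodium channel Nav1.7 and stood at 6.40 and 4.99 TPM in control and 0.527 and 0.293 TPM in Isl1cKO. For Ppp1r1c the nearest were Parvb, the lens crystallin Cryge (0.0958) and Plekhd1 (0.110), which stood at 7.08 and 5.62 TPM in control and 0.920 and 0.823 TPM in Isl1cKO. For Ubash3b they were Ppp2r2c (0.0860), Scn9a (0.0974) and Parvb (0.114). Ppp2r2c encodes a regulatory subunit of protein phosphatase 2A and stood at 12.8 and 11.2 TPM in control and 2.22 and 1.31 TPM in Isl1cKO.

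At a pseudocount of 1, Ecel1 stood somewhat apart from the other members, at RMS differences of 0.224 to 0.285 from them. This depends on the pseudocount. At 0.1 the log2 fold changes were -3.99 for Ecel1, -4.78 for Ppp1r1c, -2.39 for Parvb and -2.48 for Ubash3b. Ppp1r1c then lay furthest from Parvb and Ubash3b in fold change, and RMS differences were not computed at that setting. The genes nearest to Ecel1 were the crystallin Crygd (0.0724), Rgs4 (0.126) and the crystallin Cryba4 (0.132). Rgs4, a regulator of G-protein signalling, stood at 7.06 and 7.16 TPM in control and 0.518 and 0.540 TPM in Isl1cKO, close to the levels of Ecel1. Crygd stood at 18.2 and 19.9 TPM in control and 2.09 and 1.83 TPM in Isl1cKO, beside the lens marker sums given above. Crygd and Cryge are close paralogs of other gamma-crystallins, and how reads were divided between these copies is uncertain.

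Genes beside the members were examined for their own levels. Within 150 kb of the 4 genes lay 22 others, of which 9 were tested. In limma 0 of these were called, against 3 (Efhd1, Sult4a1 and Shisal1) at an unadjusted p-value under 0.05, where the share over all tested genes was 12.1%. Around Ecel1, Efhd1 was the 1 of these 3 with higher values in Isl1cKO, at 22.2 and 27.6 TPM in control and 34.1 and 41.4 TPM in Isl1cKO (log2 fold change 0.58, adjusted p-value 0.293 in limma). The nearest tested neighbour Eif4e2 averaged 91.6 TPM in control and 88.3 TPM in Isl1cKO. Next to Ppp1r1c, Itprid2 averaged 15.0 and 14.0 TPM in the same order. Next to Parvb, Samm50 averaged 92.8 and 86.9 TPM. No neighbour of Ubash3b passed the filter on low values. Shisal1, which was chosen after its values were seen, lies 63.6 kb beyond the end of Parvb. Its levels were 26.9 and 20.2 TPM in control and 6.42 and 3.48 TPM in Isl1cKO, or -2.08 as a log2 fold change (adjusted p-value 0.110 in limma). Sult4a1, 126 kb before Parvb, stood at 6.74 ± 0.168 and 3.50 ± 0.149 TPM (adjusted p-value 0.0615 in limma).

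**Figure D4:**
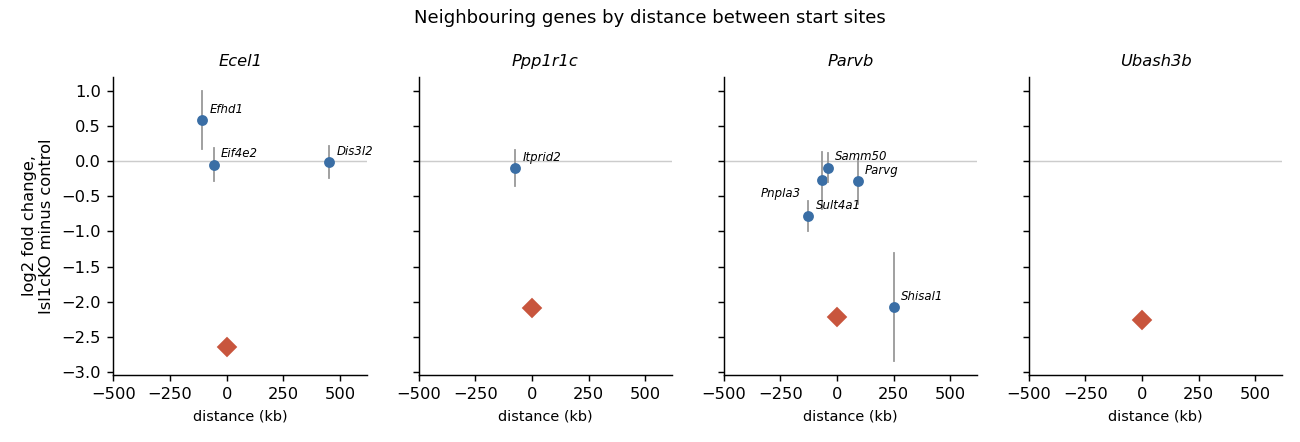
Log2 fold change (vertical axis, Isl1cKO minus control) of each member (diamond at distance 0) and of the 9 tested genes within 150 kb of it, against the distance between start sites along the member's strand in kb. Lines are 95% limma intervals. Shisal1 (-2.08) comes nearest to its member in fold change, and its start is the farthest from that of Parvb among the tested neighbours of Parvb.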

How the data were processed

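Poly(A)-selected, strand-specific RNA libraries from E13.5 retina were sequenced, 2 per group. Per the submitters' processing notes, the tools included HISAT2, SAMtools and StringTie with the build mm10; versions and annotation are not given in the sources used here. The deposited tables give 3 values per gene and library: mean read coverage per base, FPKM and TPM, per the file headers. The deposited TPM (summing to 1000000 per library) were analysed, the deposited FPKM entered an alternative, and the deposited coverage described depth. The number of reads is unknown, so no counting interval was computed, and whether counting used strand is not stated.

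TPM were summed over repeated gene IDs. Genes at 1 TPM or more in at least 2 libraries were fitted as log2(TPM + 1) with limma 3.58.1 in R 4.3.3, genotype as the only term and a constant variance prior, two-sided, with Benjamini-Hochberg adjustment over all tested genes. Named genes were the 9 members, Isl1, family members, called partners and the 3 nearest patterns per gene, without predicted genes. Others are named as further markers, list members or neighbours. Members and lists were chosen with earlier results of these data known. A Ubash3 partner gene and a progenitor marker are not reported here, and counts, medians and ranges of their lists do not include them. Alternatives are given in the closing section.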

Additional observations from a re-analysis of the deposited data

How the results depend on the processing

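The values of the 4 genes depended on the pseudocount and the unit. With a pseudocount of 0.1 the log2 fold changes were -3.99 for Ecel1, -4.78 for Ppp1r1c, -2.39 for Parvb and -2.48 for Ubash3b. With FPKM, whose values are smaller against a pseudocount of 1, they were -1.74, -1.15, -1.91 and -1.91. Median-ratio and upper-quartile scaling moved none of the 4 by more than the spread between replicates. No filter, a filter at 5 TPM (which left out Ppp1r1c), the mean-variance trend, the replicate block and the highest row in place of the sum cannot change these fold changes and bear only on the calls. Leaving out each replicate in turn gave -2.71 to -2.56 for Ecel1, -2.12 to -2.06 for Ppp1r1c, -2.32 to -2.10 for Parvb and -2.40 to -2.12 for Ubash3b. Ubash3b was no longer among the called genes without the filter. The 4 genes were also not all called when a library was left out, and without either control replicate none of them was.

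Isl1, Ece1, Ppp1r1a and Parva kept their direction and stayed uncalled under each alternative and left-out replicate, with adjusted p-values of 0.377 or more. Leaving out replicates gave log2 fold changes of 0.01 to 0.54 for Isl1. The 69 called genes became 44 at a pseudocount of 0.1, 15 with no filter, 109 with FPKM, 110 with a mean-variance trend and 10 to 37 when a replicate was left out. Each left-out replicate leaves a lone library assumed to vary like the other group. At an adjusted p-value under 0.1 no family or partner list gained a call. With the replicate block 265 genes were called. The numbers were not taken as pairs: deviations of same-numbered libraries correlated at 0.126 across genes, and only 2 pairs exist. The cause of these changes was not tested.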
